A study of Mus musculus with 66 samples.

Results

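RNA of brain hemisections was compared between *Rorb* h2/h2 mice, a spontaneous high-stepping mutant line, and C57BL/6J mice. Members were taken by the sample labels (tissue brain hemisection, genotype H2 or wild-type C57BL/6J), which gave 4 *Rorb* h2/h2 and 3 C57BL/6J libraries, 7 of the 66 in the series, and every measured gene was compared. The *Rorb* h2/h2 line (Rorb hstp-4J) arose on the albino B6(Cg)-Tyr c-2J/J background, its causal mutation is not identified, and the controls were C57BL/6J mice without that coat-colour allele. The *Rorb* h2/h2 group held 3 females and 1 male, replicates 1 and 2 aged 7.9 weeks and replicates 3 and 4 aged 9.4 weeks, from 2 series of animal identifiers, and the controls were 2 females and 1 male aged 8.0 weeks from 1 other series. Genotype, coat-colour background and animal series therefore cannot be told apart. The labels give no treatment, and each library came from a separate mouse.

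*Rorb* encodes RORβ, a nuclear receptor that binds DNA as a monomer and regulates genes during development of the retina, cerebral cortex and spinal cord. In the cortex it is known as a mark of layer 4 neurons, the main targets of sensory input from the thalamus. The DNA elements of the ROR receptors are also read by the REV-ERB repressors of the circadian clock.

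Total counts of the 7 libraries ranged from 37618157 to 54446905 (median 41098190), and mitochondrially encoded genes took 6.08% to 7.03% of them. Each library correlated with the others of its group at a mean r of 0.989 to 0.991, and 0 of 9 replicate pairs held identical counts. The first 3 principal components held 22.1%, 19.6% and 17.9% of the variance of the 500 most variable genes, and genotype explained them with an R2 of 0.18, 0.28 and 0.27, against 0.32, 0.40 and 0.24 for sex. Neuronal and glial markers were high in every library, for example a summed 2544 to 3168 CPM (read counts normalised to library size) for excitatory neuron markers. The Hox genes that mark spinal cord summed to 0.428 to 3.41 CPM in the other 6 libraries and 8.72 CPM in *Rorb* h2/h2 replicate 3, and the pituitary hormone gene *Prl* ranged from 0.145 to 12.4 CPM in the controls and from 0.461 to 71.3 CPM in the mutants.

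Of 17569 genes that passed the count filter, 24 (0.137%) were called at an adjusted p under 0.05, 18 lower (0.102%) and 6 higher (0.0342%) in *Rorb* h2/h2. The differences were small, with a median absolute log2 fold change of 0.59 among called genes, and 2 genes were past 2-fold, *Plin4* and the pseudogene *Rpl30-ps9*. At an unadjusted p under 0.05 there were 1307 genes (7.44%), 665 lower and 642 higher. All 4 mutant libraries lay below all 3 controls for 728 genes (4.14%) and above them for 648 genes (3.69%). The called genes were spread over chromosomes, with at most 2 on any of them.

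**Figure D1:**
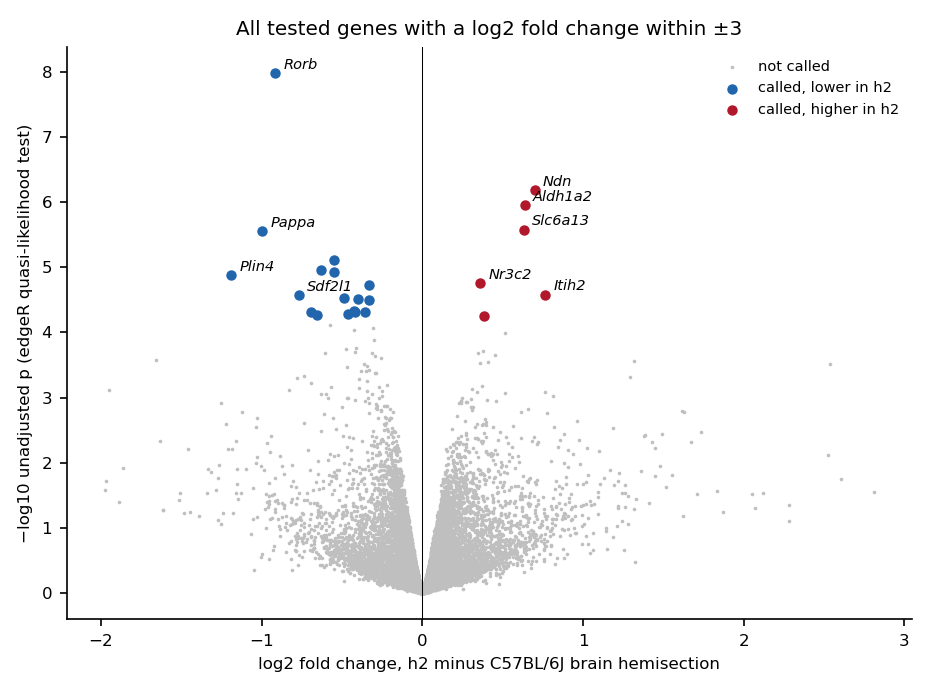
Each point is 1 of 17564 tested genes, by its log2 fold change (x axis) and the −log10 of its unadjusted p in edgeR's quasi-likelihood test (y axis), with called genes in blue (lower in h2) or red (higher). *Rorb* stands highest, called genes lower in h2 outnumber those higher, and 5 genes outside ±3, including *Rpl30-ps9*, are not drawn.

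*Rorb* (ENSMUSG00000036192, GRCm38 chromosome 19, 18930609 to 19111196) had the smallest p of all genes. It measured 52.8, 50.9 and 60.98 CPM in the 3 controls and 28.8, 30.8, 29.6 and 27.3 CPM in the 4 mutants. The lowest control was well above the highest mutant, and both ages and sexes of mutants gave like values. The log2 fold change was −0.91 (SE 0.07, adjusted p = 0.000183), so that the level fell by 47.0%. An exact permutation test of the mean CPM gave a two-sided p of 0.0286, the smallest that 4 against 3 allows. *Rorb* stayed called under 10 other settings of the fit and in 7 fits that each left out 1 library, with log2 fold changes of −0.97 to −0.80.

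The annotated genes within 1 Mb of *Rorb* that passed the filter were not called. *Trpm6*, a magnesium channel gene, had a log2 fold change of 0.10 (adjusted p = 0.96), and *Carnmt1*, a carnosine methyltransferase gene, −0.15 (adjusted p = 0.74), although for *Carnmt1* every mutant (8.31 to 9.17 CPM) lay below every control (9.33 to 10.1 CPM). *Ostf1* was at 0.10, *Nmrk1* at −0.13 and *D030056L22Rik* at −0.11. The relative *Rora* (−0.01) and the REV-ERB genes *Nr1d1* (0.15) and *Nr1d2* (0.03) were not called.

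Of 5 layer 4 markers, *Rorb* alone was called. *Rspo1*, which encodes a secreted activator of Wnt signalling, measured 2.59, 3.14 and 3.58 CPM in controls and 2.14, 1.61, 2.36 and 1.92 CPM in mutants, and *Whrn* 42.8, 38.8 and 38.9 against 34.2, 34.99, 32.9 and 37.7 CPM. Neither set of libraries overlapped, but the log2 fold changes of −0.63 (adjusted p = 0.36) and −0.20 (adjusted p = 0.44) did not pass. In bulk tissue a lower level may be fewer cells of a type or less RNA per cell, which cannot be told apart. *Scnn1a*, a sodium channel subunit gene of layer 4, was at −0.22 and *Kcnh5* at 0.19. Markers of layers 2 and 3 (9 genes, median log2 fold change 0.07), layer 5 (10 genes, 0.04) and layer 6 (9 genes, 0.01) held no called gene. These small medians moved with 1 library left out, from 0.02 to 0.09 for layers 2 and 3 (lowest without h2 replicate 1), from 0.02 to 0.06 for layer 5 (lowest without C57BL/6J replicate 1) and, with a change of sign, from −0.03 (without h2 replicate 1) to 0.08 (without C57BL/6J replicate 3) for layer 6. The median over all genes tested was −0.00058.

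**Figure D2:**
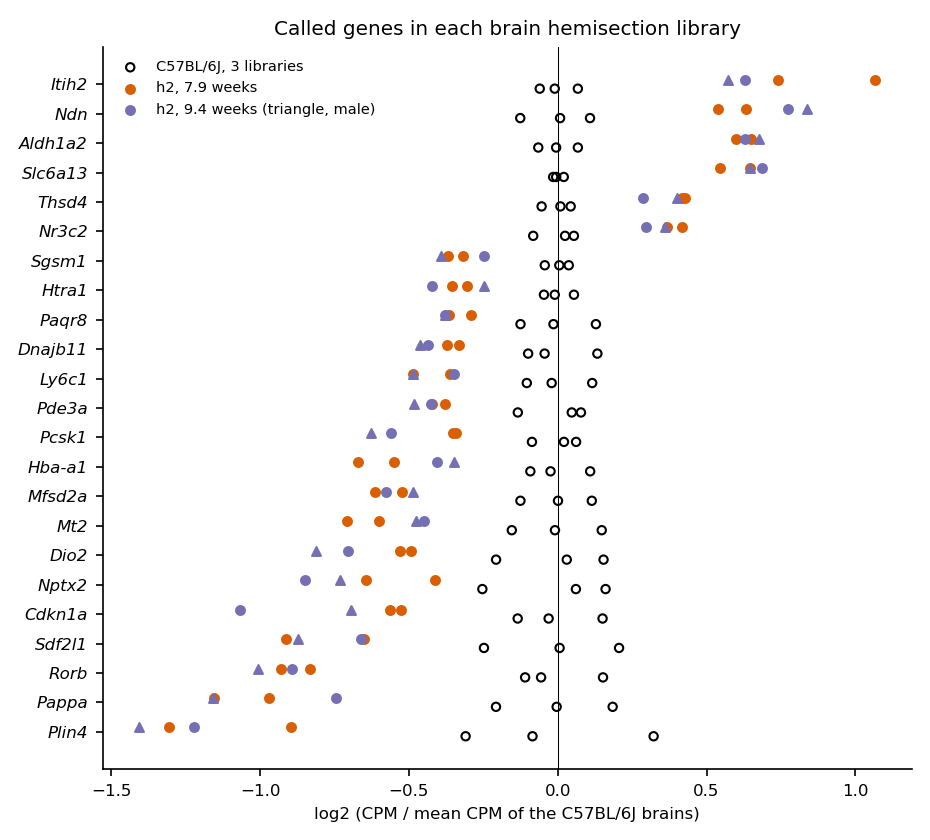
Each row is a called gene (*Rpl30-ps9*, at 0 in all mutants, is left out), and each point is 1 library, as log2 of its CPM over the mean of the 3 C57BL/6J libraries (x axis); open circles are controls, orange marks h2 mice of 7.9 weeks and purple those of 9.4 weeks, with a triangle for the male. Mutant and control libraries do not overlap for any of the 23 genes drawn.

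Of the genes that fell, 2 serve protein folding in the endoplasmic reticulum (ER), where secreted and membrane proteins fold with the help of chaperones and disulfide isomerases. When unfolded protein builds up, the sensors ATF6, IRE1 and PERK raise the genes of this machinery, and the promoters of many of them hold the ER stress element, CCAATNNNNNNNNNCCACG, which ATF6 reads together with NF-Y. Of 28 ER folding genes tested, 24 had a negative and 4 a positive log2 fold change, with a median of −0.14. Of these, 2 were called (both lower), against 0.137% of all genes, and 12 reached an unadjusted p under 0.05 (all lower), against 7.44%. In the same 12 all 4 mutants lay below all 3 controls, against 4.14% of all genes. The number called was 11 with DESeq2 or without the low-count filter, 10 in one fit of all brain libraries, 5 without TMM or without C57BL/6J replicate 2, 4 without h2 replicate 1, and 0 with sex as a covariate, with the replicate block, with females or either age alone, or without any 1 of the other 5 libraries. The median stayed between −0.19 and −0.12 in all of these.

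*Sdf2l1*, whose protein is part of an ER chaperone complex, measured 9.52, 7.98 and 10.9 CPM in controls and 6.03, 5.04, 6.00 and 5.17 CPM in mutants. *Dnajb11*, a co-chaperone of BiP, measured 54.4, 52.4 and 61.5 CPM against 44.6, 43.3, 41.5 and 40.7 CPM. Both fell, *Sdf2l1* by 0.77 (SE 0.12) and *Dnajb11* by 0.40 (SE 0.06) on the log2 scale (adjusted p = 0.033 for each). The next gene below the threshold over all genes was *Hspa5*, which encodes BiP itself, at 344, 303 and 426 CPM in controls and 267, 244, 235 and 216 CPM in mutants. Its log2 fold change of −0.57 (SE 0.10) had an adjusted p of 0.0545. *Creld2* (−0.60, adjusted p = 0.10), *Manf* (−0.48, adjusted p = 0.10), *Pdia6* (−0.41, adjusted p = 0.10), *Pdia4* (−0.47, adjusted p = 0.13) and *Calr* (−0.39, adjusted p = 0.16) were not called, and for each of them control and mutant libraries did not overlap.

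The 250 bases before the RefSeq start sites (GRCm38.p6) were searched on both strands for the ER stress element. The 6 printed windows are those of 3 folding genes with a match, of the 2 called folding genes, and of the called metallothionein gene described further on. Capitals mark the matches. The windows of *Hspa5* (chr2:34771840-34772089, + strand), *Pdia6* (chr12:17266339-17266588, + strand) and *Creld2* (chr15:88819396-88819645, + strand) read as follows, 5′ to 3′ on the strand of the gene.

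Hspa5: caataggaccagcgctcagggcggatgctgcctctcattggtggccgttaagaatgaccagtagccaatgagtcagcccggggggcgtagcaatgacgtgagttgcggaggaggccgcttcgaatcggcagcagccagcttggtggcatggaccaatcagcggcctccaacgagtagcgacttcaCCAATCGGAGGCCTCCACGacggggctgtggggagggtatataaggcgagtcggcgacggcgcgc
Pdia6: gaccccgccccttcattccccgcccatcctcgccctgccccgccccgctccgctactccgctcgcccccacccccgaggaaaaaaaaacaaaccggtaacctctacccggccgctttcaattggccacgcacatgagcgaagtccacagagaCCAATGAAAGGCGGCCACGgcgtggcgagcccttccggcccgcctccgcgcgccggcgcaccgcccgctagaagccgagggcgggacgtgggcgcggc
Creld2: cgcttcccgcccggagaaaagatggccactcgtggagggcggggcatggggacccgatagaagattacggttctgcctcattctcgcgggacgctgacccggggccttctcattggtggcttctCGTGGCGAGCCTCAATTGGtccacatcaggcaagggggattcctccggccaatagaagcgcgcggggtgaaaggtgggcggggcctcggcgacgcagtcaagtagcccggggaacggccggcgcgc

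The element ended 46 bases before the start site in *Hspa5* and 79 bases before it in *Pdia6*, and in *Creld2* it lay on the opposite strand 107 bases before the start. It was found in 37 of 32851 promoters (0.113%), those of 35 of 27025 genes (0.13%), and among the genes tested in brain with a promoter in 20 of 12219 (0.164%). The ER folding genes had 32 promoters in the table, of 25 genes, and 8 promoters (25.0%) held it, those of 8 genes (32.0%). Since the element is known from promoters of such genes, this share is background and not a result of these data. Tested genes outside the list that hold the element were not examined for their fold changes. The 8 holders all had negative log2 fold changes, with a median of −0.37 and a range of −0.60 to −0.09. The 17 without a match had a median of −0.09, 14 of them negative. The called genes *Sdf2l1* (chr16:17132384-17132633, − strand) and *Dnajb11* (chr16:22857595-22857844, + strand) had no match in this window.

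Sdf2l1: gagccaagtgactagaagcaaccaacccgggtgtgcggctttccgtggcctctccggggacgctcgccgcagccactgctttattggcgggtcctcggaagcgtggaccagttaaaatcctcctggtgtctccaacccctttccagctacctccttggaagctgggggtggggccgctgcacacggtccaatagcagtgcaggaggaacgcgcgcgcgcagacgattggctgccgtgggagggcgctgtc
Dnajb11: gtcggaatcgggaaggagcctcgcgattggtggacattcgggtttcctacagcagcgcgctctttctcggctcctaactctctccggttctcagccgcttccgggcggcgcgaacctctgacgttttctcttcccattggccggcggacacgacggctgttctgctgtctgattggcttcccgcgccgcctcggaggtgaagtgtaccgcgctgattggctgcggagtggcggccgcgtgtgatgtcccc

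Among 23 genes of ER stress sensing, ATF4 targets and degradation, 18 had negative values (median −0.09, highest 0.24) and none was called. An unadjusted p under 0.05 was reached by 6, all lower, against 7.44% of all genes. In 6 all mutants lay below all controls and in 1 above them, against 4.14% and 3.69% of all genes. The median was −0.04 without h2 replicate 2 and −0.05 without h2 replicate 4. *Derl3*, of ER-associated degradation, had the most negative value at a low level, with 1.118, 0.758 and 0.909 CPM in controls and 0.514, 0.501, 0.344 and 0.435 CPM in mutants (−1.04, adjusted p = 0.34). *Xbp1*, the transcription factor spliced by IRE1, measured 81.0, 71.8 and 81.1 CPM in controls and 65.5, 63.3, 65.7 and 60.2 CPM in mutants (−0.29, adjusted p = 0.11). *Herpud1*, of the same process, was at −0.19 and the PERK-branch factor *Atf4* at −0.14, while *Ddit3*, the ATF4 target known as CHOP, was at −0.07. Of 21 genes of translocation and early secretory transport 16 were negative, with a median of −0.03 and no call, and 13 were negative without h2 replicate 2 (median −0.0050) or C57BL/6J replicate 1 (median −0.01).

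Heat shock genes of the cytosol and mitochondria were lower in sign for 14 of 14 genes, with a median of −0.15 and no call. The median was −0.09 with 13 of 14 lower without C57BL/6J replicate 3, −0.18 with 12 of 14 without C57BL/6J replicate 1 and −0.06 with 12 of 14 in females alone. *Hspa8*, the constitutive HSC70, measured 1755, 1725 and 1921 CPM against 1681, 1592, 1602 and 1485 CPM, and its log2 fold change of −0.18 had an adjusted p of 0.52. The near-identical pair *Hspa1a* and *Hspa1b*, among which reads cannot be divided with certainty, summed to 16.8, 18.6 and 25.6 CPM in controls and 15.9, 15.4, 15.5 and 12.8 CPM in mutants. Every mutant was below every control for this sum, though by less than 1 CPM between the nearest libraries.

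Glucocorticoids, the adrenal stress hormones, raise a known group of transcripts in brain through the glucocorticoid receptor. Of 17 such genes 14 had negative log2 fold changes (median −0.13). Of the 17, 2 were called lower and 7 reached an unadjusted p under 0.05, against 7.44% of all genes. The summed level was 494 to 543 CPM in controls and 450 to 463 CPM in h2 replicates 1, 3 and 4, but 529 CPM in replicate 2, inside the control range. Without replicate 2 the median was −0.17, with 1 gene called. No member was called with sex as a covariate, with the replicate block, with females or mutants of 7.9 weeks alone, or without C57BL/6J replicate 1 or h2 replicate 3 or 4. *Plin4*, a lipid droplet coat protein gene (chromosome 17, 56100587 to 56109948), measured 6.87, 4.44 and 5.18 CPM in controls and 2.23, 2.95, 2.36 and 2.07 CPM in mutants, a log2 fold change of −1.19 (SE 0.17, adjusted p = 0.026). *Cdkn1a*, the cell-cycle inhibitor p21 and also a p53 target, measured 25.2, 22.2 and 20.7 CPM against 15.7, 15.4, 10.8 and 14.01 CPM and fell by 0.69 (SE 0.11, adjusted p = 0.041). *Tsc22d3*, the glucocorticoid-induced leucine zipper gene, was at −0.29 (adjusted p = 0.24) and *Sgk1* at −0.28 (adjusted p = 0.40), while *Fkbp5*, often the clearest member of this group, was at −0.07. The other 10 p53 targets held no called gene. *Nr3c2*, the mineralocorticoid receptor and the second receptor for these hormones, rose from 44.7, 48.2 and 49.2 CPM to 63.2, 61.1, 58.2 and 60.9 CPM (log2 fold change 0.36, SE 0.05, adjusted p = 0.030).

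*Mt2* encodes a metallothionein, a small cysteine-rich protein that binds zinc and copper, and its gene responds to metals and glucocorticoids. It measured 57.5, 51.6 and 46.7 CPM in controls and 34.3, 31.8, 38.0 and 37.4 CPM in mutants, and fell by 0.55 on the log2 scale (SE 0.08, adjusted p = 0.026). *Mt1*, at 75.0, 72.5 and 60.9 against 57.5, 53.6, 59.0 and 59.6 CPM, also did not overlap but did not pass (−0.27, adjusted p = 0.29), and *Mt3* was at −0.06. The 250 bases before *Mt2* (chr8:94172368-94172617, + strand) held 5 matches to TGCNCNC on either strand. This pattern is looser than the metal response core TGCRCNC, in which R is A or G. The matches GGGAGCA (on the opposite strand) and TGCTCTC have T at that base and are not such cores.

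Mt2: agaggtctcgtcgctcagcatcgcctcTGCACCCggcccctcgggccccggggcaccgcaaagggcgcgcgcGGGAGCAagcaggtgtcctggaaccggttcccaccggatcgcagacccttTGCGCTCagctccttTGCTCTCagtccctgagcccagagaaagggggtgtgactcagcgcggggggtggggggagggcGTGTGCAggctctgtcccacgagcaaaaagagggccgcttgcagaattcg

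All 3 metallothionein promoters held this core, which is short and stood in 44.4% of all promoters of this length. The ROR response element, AANTAGGTCA, was found in 58 promoters (0.177%) and in 0 of the 20 called genes with a promoter in the table, 14 lower and 6 higher. Only 0.147% of the tested genes held it, so a match among 20 genes would be rare in any case. The 0 therefore cannot show whether these genes are targets of RORβ.

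*Dio2*, the deiodinase that makes active thyroid hormone in astrocytes and tanycytes, measured 111, 94.5 and 121 CPM in controls and 77.6, 75.6, 67.0 and 62.1 CPM in mutants, and fell by 0.63 (SE 0.09, adjusted p = 0.026). Of the 7 other genes of thyroid hormone metabolism and response none was called, and the carrier gene *Slco1c1* was at −0.08. *Mfsd2a*, the transporter that brings docosahexaenoic acid lipids across brain endothelium, measured 20.4, 17.3 and 18.9 CPM against 13.1, 12.3, 12.7 and 13.5 CPM and fell by 0.55 (SE 0.07, adjusted p = 0.023). *Ly6c1*, a surface protein of endothelium, fell by 0.42 (adjusted p = 0.041), and it was 1 of 12 endothelial markers, which had a median of 0.0018 with no other call. *Pde3a*, a phosphodiesterase of cyclic AMP, fell by 0.42 (adjusted p = 0.041), and *Htra1*, a secreted serine protease, by 0.33 (adjusted p = 0.033).

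*Pappa*, a protease that releases insulin-like growth factors from their binding proteins, measured 12.1, 9.21 and 10.6 CPM in controls and 4.77, 5.43, 6.34 and 4.76 CPM in mutants. Its log2 fold change was −0.995 (SE 0.12, adjusted p = 0.0097), the second largest decrease of a called protein-coding gene after *Plin4*. *Nptx2*, an activity-regulated pentraxin of excitatory synapses, measured 23.3, 28.9 and 31.0 CPM against 17.8, 20.9, 15.4 and 16.7 CPM (−0.65, adjusted p = 0.041). *Pcsk1*, a prohormone convertase, measured 30.9, 33.3 and 34.2 CPM against 25.8, 25.7, 22.2 and 21.2 CPM (−0.47, adjusted p = 0.041). *Paqr8*, a membrane progestin receptor, fell by 0.35 and *Sgsm1*, a modulator of small G proteins, by 0.33. *Bdnf*, the neurotrophin gene induced by activity, stood just outside the threshold at 26.9, 27.3 and 28.5 against 22.6, 21.6, 19.5 and 18.4 CPM (−0.42, adjusted p = 0.060). The 14 other immediate early and activity genes varied among the mutants, with *Fos*-family and *Egr* genes not called and *Junb* at 34.8 CPM in *Rorb* h2/h2 replicate 2 against 19.6 to 21.8 in the other 3.

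Of the 6 genes that rose, *Ndn* had the smallest p. It encodes necdin, a growth-suppressing protein of neurons expressed from the paternal chromosome in the Prader-Willi cluster (chromosome 7, 62348277 to 62349928). *Ndn* measured 111, 103 and 94.1 CPM in controls and 159, 149, 176 and 183 CPM in mutants, a log2 fold change of 0.70 (SE 0.08, adjusted p = 0.0057). The 6 other tested genes of the cluster were not called, and 2 of them had an unadjusted p under 0.05 in the other direction, *Snurf* (−0.26, adjusted p = 0.67) and *Atp10a* (−0.19, adjusted p = 0.59). For *Atp10a* all mutants lay below all controls. *Magel2* (−0.11), *Snrpn* (−0.03), *Ube3a* (0.06) and *Mkrn3* (0.02) overlapped.

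The other genes that rose include those of the meninges, the connective tissue sheets that cover the brain and make retinoic acid and transport solutes. *Aldh1a2*, the retinaldehyde dehydrogenase that makes retinoic acid, measured 8.86, 9.72 and 9.24 CPM in controls and 14.5, 14.1, 14.4 and 14.8 CPM in mutants (log2 fold change 0.64, SE 0.07, adjusted p = 0.0064). *Slc6a13*, the GABA and taurine transporter GAT2, measured 7.61, 7.42 and 7.47 CPM against 11.7, 10.9, 12.1 and 11.7 CPM (0.63, SE 0.08, adjusted p = 0.0097). *Itih2*, a hyaluronan-binding heavy chain, measured 6.46, 6.24 and 6.82 CPM against 13.6, 10.9, 10.1 and 9.68 CPM (0.77, SE 0.12, adjusted p = 0.033), with the highest value in replicate 1. *Thsd4*, a gene of extracellular microfibrils, rose by 0.39 (SE 0.06, adjusted p = 0.041).

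*Aldh1a2* and *Slc6a13* were 2 of 14 meningeal markers, of which 12 had positive values (median 0.24) and 2 were called. In 6 of the 14 all mutants lay above all controls, against 3.69% of all genes. No member was called without C57BL/6J replicate 1, with the replicate block or with females alone, and 1 was called without C57BL/6J replicate 2 or with mutants of 7.9 weeks alone. Next by p were *Slc47a1* (0.44, adjusted p = 0.34) and *Slc13a4* (0.25, adjusted p = 0.56), while the collagen genes *Col1a1* (−0.08), *Col1a2* (0.09) and *Col3a1* (0.16) stood near 0. The summed level of the list was 209 to 232 CPM in controls and 234 to 274 CPM in mutants, so every mutant was above every control. How much meninges each hemisection carried was not measured, and its part in these values was not tested. The other 13 genes of retinoic acid synthesis and signalling held no call, with *Rarb*, a target of retinoic acid, at 0.13 and *Cyp26b1*, which degrades it, at −0.04.

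Choroid plexus markers varied within groups. Of 12 markers 11 had negative values (median −0.38), none was called, and 6 reached an unadjusted p under 0.05, against 7.44% of all genes. *Ttr*, the transthyretin gene, measured 313, 439 and 325 CPM in controls and 352, 256, 198 and 188 CPM in mutants. The mutants of 9.4 weeks, replicates 3 and 4, had the lowest values, and replicate 1 lay among the controls. The summed markers were 407 to 574 CPM in controls and 253 to 466 CPM in mutants and overlapped. With mutants of 7.9 weeks alone the median was −0.06 with no call, and with those of 9.4 weeks alone it was −0.64, with 12 of 12 negative and 2 called. The 2 ages of mutants were also the 2 series of animal identifiers, and the male was of 9.4 weeks. Age and series therefore cannot be told apart within h2, nor sex in full. Without C57BL/6J replicate 2, the control of the highest sum, the median was −0.19, with 8 of 12 negative.

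**Figure D3:**
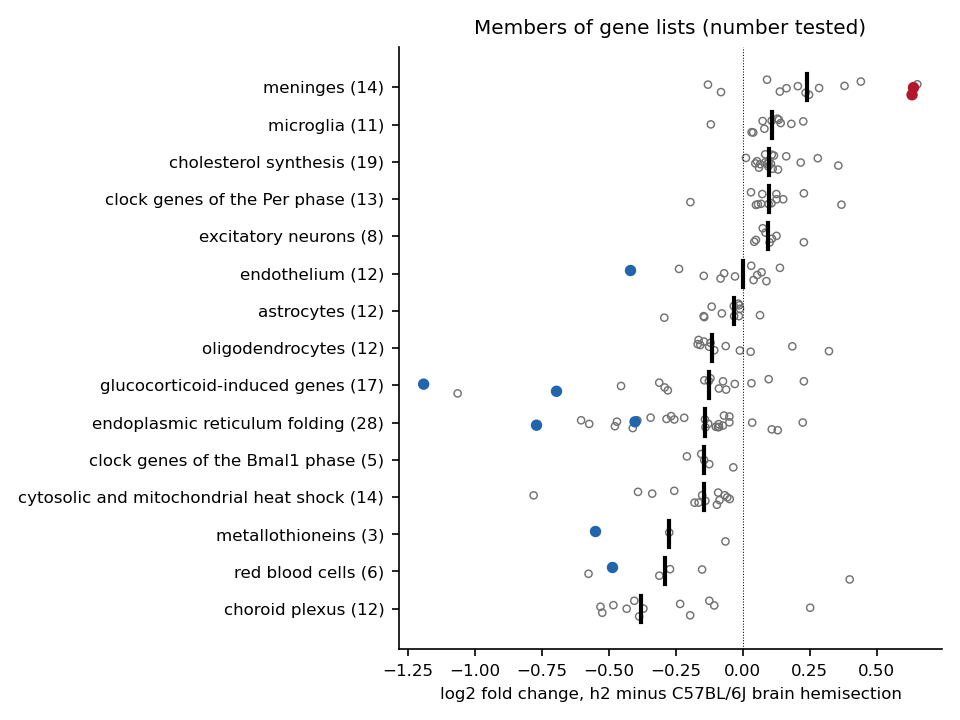
Each point is a gene of a list, placed by its log2 fold change in h2 against C57BL/6J brain (x axis), filled where called (blue lower, red higher), with a bar at the list's median and the number tested in brackets. Of the lists drawn, meningeal genes have the highest median (0.24) and choroid plexus genes the lowest (−0.38), and few members of any list are called.

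Lists of smaller shifts had the same sign in most members without a call. All 19 genes of the cholesterol list were positive (median 0.10), among them *Insig1*, a regulator of sterol synthesis (0.22, adjusted p = 0.51), and *Mvk*, mevalonate kinase (0.28, adjusted p = 0.54). Of 13 clock genes of the Per phase 12 were positive (median 0.10), led by *Dbp* (0.37, adjusted p = 0.19), and all 5 of the Bmal1 phase were negative (median −0.14), with *Bmal1* at −0.12. With 1 library left out the Per phase median ranged from 0.06 (without h2 replicate 2, and likewise without C57BL/6J replicate 2) to 0.13, and that of the Bmal1 phase from −0.18 to −0.08 (without C57BL/6J replicate 3). Of 12 oligodendrocyte markers 9 were negative (median −0.11), of 12 astrocyte markers 11 (median −0.03) and of 11 microglial markers 10 were positive (median 0.11), and none of these was called. Without C57BL/6J replicate 1 only 5 of the astrocyte markers were negative (median 0.0082), 7 of the oligodendrocyte markers were negative (median −0.07), and 8 of the microglial markers were positive (median 0.02). All 8 excitatory neuron markers were positive (median 0.09) and 8 of 9 cerebellum markers negative (median −0.15), with no call. Without that control these medians were 0.02 and −0.04. The cerebellum markers summed to 1525, 1393 and 1078 CPM in controls and 1137 to 1274 CPM in mutants, which overlapped.

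Of the called genes, 2 have close copies and are uncertain. *Hba-a1*, an alpha-globin gene, measured 61.7, 67.7 and 58.9 CPM in controls and 42.8, 39.4, 47.3 and 49.3 CPM in mutants (−0.49, adjusted p = 0.033), but its near-identical copy *Hba-a2* had a positive log2 fold change of 0.40 (adjusted p = 0.31). Their sum was 103, 114 and 99.5 CPM against 97.4, 84.6, 115 and 108 CPM and overlapped. *Rpl30-ps9*, a processed pseudogene on the X chromosome (105278583 to 105279053), had 20, 16 and 20 counts in controls and 0 in each mutant, and with 3 counts per library as the floor it was at least 5.74-fold lower. It resembles the transcript of a ribosomal protein gene, so that reads may have been divided between them.

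Spinal cords of the same 7 mice were compared in the same way, and the libraries are separate from those of the brain. In spinal cord 365 of 17464 genes were called (2.09%), and of the 24 brain genes 13 were among them, 12 lower and 1 higher. The sign was the same as in brain for 22 of the 24. *Rorb* measured 41.0, 39.5 and 36.7 CPM in control cords and 23.2, 23.3, 25.0 and 23.2 CPM in mutant cords (log2 fold change −0.72, adjusted p = 9.7e-07). *Ndn* measured 126, 118 and 126 CPM against 172, 166, 169 and 174 CPM (0.46, adjusted p = 9.7e-07). Both shifts were smaller in size than in brain, and neither difference between tissues passed (adjusted p = 0.94 and 0.88). For *Rorb* it was −0.19, with a 95% interval of −0.43 to 0.06.

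Genes of the ER, hormone and metal groups fell in cord as well. *Sdf2l1* fell by 0.76, *Dnajb11* by 0.29, *Mt2* by 0.60, *Plin4* by 0.90, *Cdkn1a* by 0.52, *Dio2* by 0.75 and *Mfsd2a* by 0.51 on the log2 scale, each called. *Hspa5*, which missed the threshold in brain, was called in cord (−0.49, adjusted p = 0.0056). In cord 8 of the 28 ER folding genes were called lower (median −0.16), as were 5 of the 17 glucocorticoid-induced genes (median −0.24) and 2 of the 3 metallothioneins.

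The 6 genes that rose in brain divided otherwise. *Aldh1a2* was at −0.10 in cord (adjusted p = 0.86), *Slc6a13* at 0.18, *Itih2* at 0.11, *Thsd4* at 0.06 and *Nr3c2* at 0.10, and none of these was called. *Aldh1a2* was also low there, at 1.59 to 2.23 CPM in control and 1.53 to 2.28 CPM in mutant cords. *Pappa*, *Pcsk1* and *Sgsm1*, lower in brain, were at −0.08, −0.04 and 0.02 in cord. A test of the difference between tissues with the animal as a block called 0 of 18486 genes (0%, 990 at an unadjusted p under 0.05), and *Pappa* came nearest with a difference of −0.92 (adjusted p = 0.0513). The brain values that chose these genes enter that difference, and no tissue specificity is shown.

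**Figure D4:**
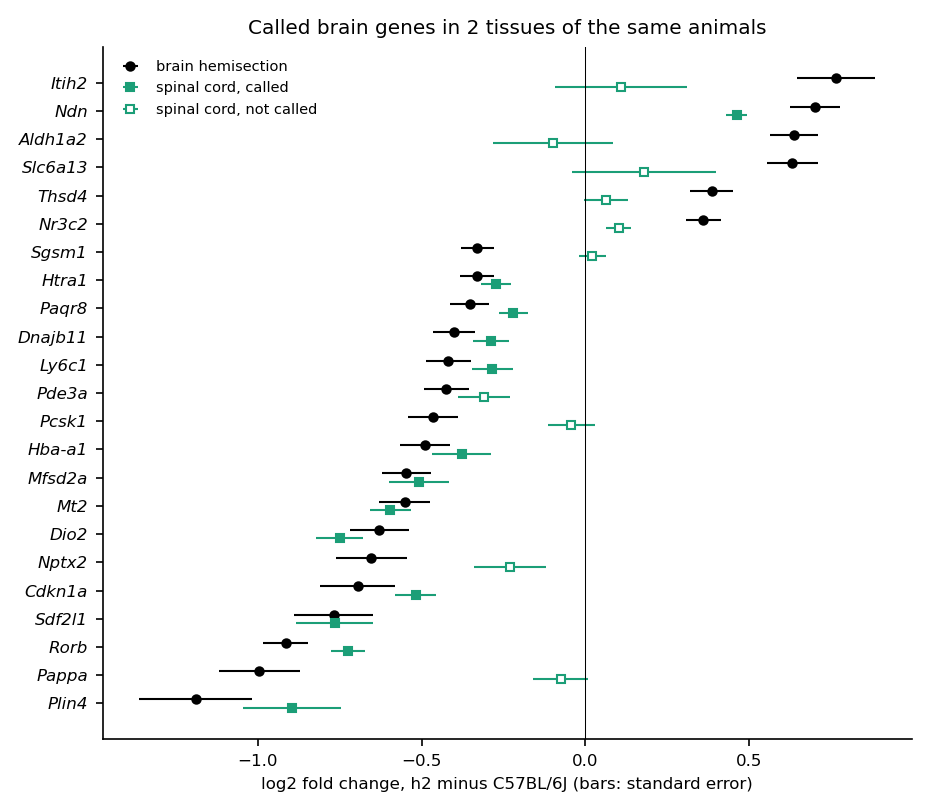
Log2 fold change of h2 against C57BL/6J (x axis, bars are standard errors) for the called brain genes in brain (black circles) and in spinal cord (green squares, filled where called). Most lowered genes are also below 0 in cord, whereas *Pappa*, *Pcsk1* and *Sgsm1* and the genes that rose, apart from *Ndn*, lie near 0 there.

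Other spontaneous *Rorb* lines on B6-related backgrounds were measured against the same 3 control brains, h1 (3 libraries, a duplication upstream that takes in one of the alternative first exons, on C57BL/6J), h3 (4 libraries, mutation not identified, on the same albino background as h2) and h4 (4 libraries, a premature stop codon, on the background B6.129S7-Il1r1 tm1/mx/J). The h1 mice were 2 females and 1 male aged 8.0 weeks, the h3 mice 1 female and 3 males aged 8.0 to 9.6 weeks and the h4 mice 2 females and 2 males aged 8.4 to 8.6 weeks. Since the controls are shared, h2 was compared with each line directly in 1 fit of the 18 brain libraries, which called 5 genes against h1 (0.0271%), 17 against h3 (0.092%) and 32 against h4 (0.173%) of 18473 tested. Among those of smallest p, *H2-Q1* was lower in h2 than in h1 (−2.24, adjusted p = 0.030). *Myoc* (0.71, adjusted p = 0.00011) and *Thbd* (0.55, adjusted p = 0.00037) were higher than in h3, and *Lgi4* (0.69, adjusted p = 3.8e-06) and *Egfl6* (1.89, adjusted p = 3.5e-05) than in h4.

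*Rorb* itself was graded. Its level was 34.6 to 37.0 CPM in h1, 50.6 to 54.8 in h3 and 10.4 to 14.7 in h4, with h2 at 27.3 to 30.9 and the controls at 50.8 to 60.9 on the common scale. The h2 brains were lower than h3 by 0.86 (adjusted p = 3.6e-06) and higher than h4 by 1.19 (adjusted p = 3.3e-08) on the log2 scale. Against h1 the libraries did not overlap either, but the difference of −0.31 (95% interval −0.48 to −0.13) did not pass across genes (adjusted p = 0.53). The order from high to low was controls and h3, which overlapped, then h1, h2 and h4.

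None of the other 17 genes that fell in h2 differed from h1 or h3 at the threshold, and *Dio2* (0.35) and *Htra1* (0.29) were higher in h2 than in h4 (adjusted p = 0.047 for each), each held in 1 of 8 fits that left out a library. The median log2 difference of the 18 genes was −0.28 against h1, −0.05 against h3 and 0.04 against h4, and the h2 libraries that chose these genes enter each difference. *Sdf2l1* was at 5.17 to 5.8 CPM in h1, 4.12 to 5.72 in h3 and 4.89 to 5.74 in h4, and *Hspa5* at 241 to 278, 200 to 237 and 210 to 236 CPM, all within or near the h2 range and below the controls. Across the 28 ER folding genes the medians were −0.02, 0.06 and 0.05 with no call. *Plin4* reached 3.42 to 6.69 CPM in h1, which overlapped the controls and h4, against 1.67 to 3.02 in h3 and 2.00 to 3.78 in h4.

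Of the 13 called differences of the 24 genes from another line, 9 were in genes that rose. For these too, the h2 libraries that chose the genes enter each difference. *Aldh1a2* was higher in h2 than in h1 by 0.72 (adjusted p = 0.0043), than in h3 by 0.60 (adjusted p = 0.0034) and than in h4 by 0.73 (adjusted p = 0.00039), the other lines being at 7.82 to 10.5 CPM, and the call against h1 held in 5 of 7 fits that left out a library. *Itih2* was higher by 0.84 (adjusted p = 0.039), 0.98 (adjusted p = 0.0012) and 0.95 (adjusted p = 0.0012), and the call against h1 held in 1 of 7 fits that left out a library. *Slc6a13* was higher than in h3 by 0.49 (adjusted p = 0.014) and than in h4 by 0.43 (adjusted p = 0.036), which held in 5 and 1 of 8 such fits, and with the 2 groups alone neither passed (adjusted p = 0.0505 and 0.18). It was not called against h1 (0.46, adjusted p = 0.13). *Gjb2*, a connexin gene of the leptomeninges, was higher than in h1 (0.65, adjusted p = 0.0073) and h3 (0.52, adjusted p = 0.0089). It was not called against h4 (0.28, adjusted p = 0.45), whose 11.6 to 14.3 CPM overlapped the 14.2 to 17.9 CPM of h2, or against the controls (0.52, adjusted p = 0.063). Over the 14 meningeal markers 1, 3 and 2 were called higher against h1, h3 and h4.

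*Ndn* grouped differently. It was higher in h2 than in h1 by 0.71 (adjusted p = 0.0010), where it measured 91.8 to 114 CPM as in the controls, but h3 at 163 to 176 CPM and h4 at 139 to 179 CPM overlapped h2, with differences of −0.02 and 0.06. The h1 mice share their series of animal identifiers with the controls, and h1 is on their C57BL/6J background, whereas h2, h3 and h4 share neither. For *Ndn* line, background and animal series therefore cannot be told apart. *Ide*, the insulin-degrading enzyme gene, was lower in h2 than in h3 by 0.99 and than in h4 by 0.60, and h2 was at −0.08 against the controls. *Nr3c2* differed from h1, h3 and h4 by 0.16, 0.00 and −0.05, none called.

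**Figure D5:**
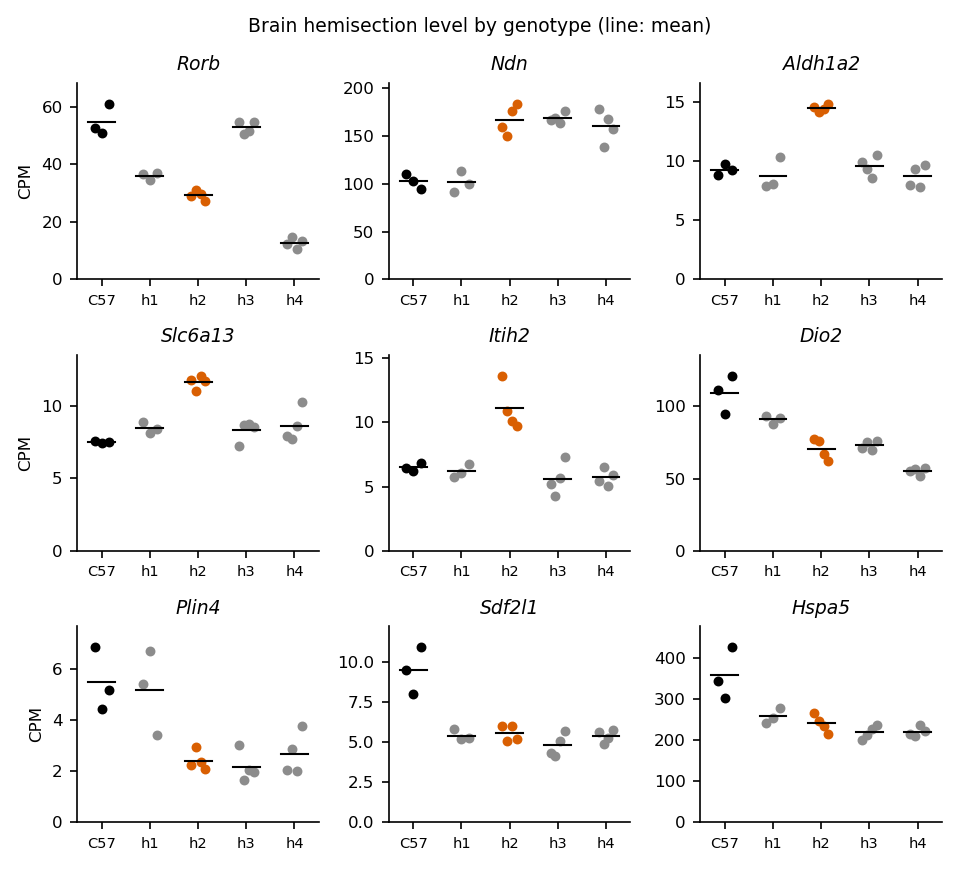
Level of 9 genes (y axis, CPM from 0) in each brain library of C57BL/6J (black), h1, h3 and h4 (grey) and h2 (orange), with a line at the group mean. *Aldh1a2*, *Slc6a13* and *Itih2* are highest in h2, *Rorb* lies between h1 and h4, and *Sdf2l1* and *Hspa5* are lower than in C57BL/6J in all 4 mutant lines.

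The calls depended on which library was left out. Without C57BL/6J replicate 1 the count of 24 fell to 2, *Rorb* and *Ndn*, and these were also the 2 genes whose calls held in all 7 fits that left out a library. *Aldh1a2* and *Pappa* held in 6 of 7. Without C57BL/6J replicate 2 and h2 replicates 2, 3 and 4 the counts were 13, 8, 7 and 10, with 10, 8, 7 and 9 of the 24 among them. Without C57BL/6J replicate 3 and h2 replicate 1 they were 21 and 22, with 13 and 15 of the 24 among them. With sex as a covariate 5 genes were called. *Sdf2l1* and *Dnajb11* held in 2 of 7, and *Htra1*, *Ly6c1* and *Thsd4* in 0 of 7, whereas over all settings their log2 fold changes ranged from −0.36 to −0.30, from −0.47 to −0.36 and from 0.35 to 0.43. *Cdkn1a* moved more, from −0.87 to −0.54, as did *Pcsk1*, from −0.59 to −0.34, and *Itih2*, from 0.60 to 0.92. No called gene changed sign in any fit. P-values measure the spread between separate mice.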

How the data were processed

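Brains were cut sagittally and snap-frozen, and polyA libraries (KAPA mRNA HyperPrep) were sequenced paired-end by the study. The authors trimmed reads with Trim Galore, aligned with STAR and deposited RSEM expected counts and TPM per gene (GRCm38). The deposited expected counts, 5.02% of which were not whole in the 7 brain libraries, were rounded. The TPM values deposited by the authors served only as an alternative scale for *Rorb*. Of 45706 identifiers, 41407 had a symbol (GENCODE vM39) and 31375 a GRCm38 position (RefSeq GRCm38.p6). Genes without a symbol took 3.25% to 8.82% of counts in the 7 brains and stayed in all fits. Of the 66 libraries 25 were used, and the others were not analysed here.

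Counts were filtered with filterByExpr, scaled by TMM and tested with edgeR 4.0.16 (R 4.3.3, limma 3.58.1) by the quasi-likelihood test with Benjamini-Hochberg adjustment, and genes under an adjusted p of 0.05 were called. The h2 brain comparison was fitted on its 7 libraries, with DESeq2 1.42.0 as an alternative. Mutant lines were compared in 1 fit of all 18 brain libraries, and tissues in 1 fit with the animal as a block. The exact permutation test of *Rorb* was two-sided. Scripts were tested on simulated counts. Genes were named from a set of *Rorb*, its neighbours within 1 Mb, called genes, called members of each list with up to 4 others of smallest p, and the 5 of smallest p in the other contrasts. Not every gene of that set is named. A few further list members, such as *Hspa8*, *Fkbp5*, *Atf4*, *Ddit3* and the collagens, were named after their values were seen. Members and gene lists were chosen with earlier results of these data known. RefSeq promoters (32851 of 27025 genes) were matched by symbol, and 250 bases upstream were searched. A few list members are not reported here.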

Additional observations from a re-analysis of the deposited data

Results flagged for a closer look

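In 12 of 248 groups of 4 *Rorb* h2/h2 brain values, 1 library lay far from the other 3, with a gap to the nearest of them past Dixon's 95% critical value as a share of the whole range. Chance gives about 1 in 20 such groups. Replicate 2 held the distant value for *Junb* (34.8 against 19.6 to 21.8 CPM, gap ratio 0.855), *Mvk* (9.04 against 11.0 to 11.3 CPM, 0.846), *Mt3* (56.4 against 62.4 to 63.3 CPM, 0.862) and *Tagln* (0.846), and for the summed glucocorticoid-induced genes (529 against 450 to 463 CPM, 0.836). Replicate 1 held it for *Paqr8* (219 against 206 to 208 CPM, 0.850), *Trpm6* (2.27 against 1.84 to 1.87 CPM, 0.945) and *Oca2* (0.862). Replicate 3 held it for *Adora2a* (18.01 against 21.95 to 22.4 CPM, 0.901) and *Igfbp2* (21.7 against 24.5 to 24.8 CPM, 0.886), and replicate 4, the male, for *Lef1* (0.832) and the female-specific transcript *Xist* (0.832).

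Among the genes called against C57BL/6J, 13 differences from another mutant line passed edgeR's quasi-likelihood test, and the h2 libraries that chose these genes enter each difference. Against h1 these were *Ndn* (0.71), *Aldh1a2* (0.72) and *Itih2* (0.84) on the log2 scale. Against h3 they were *Rorb* (−0.86), *Aldh1a2* (0.60), *Slc6a13* (0.49) and *Itih2* (0.98). Against h4 they were *Rorb* (1.19), *Aldh1a2* (0.73), *Slc6a13* (0.43), *Dio2* (0.35), *Itih2* (0.95) and *Htra1* (0.29).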

How the results depend on the processing

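The 24 genes called in brain became 87 with DESeq2 (23 of the 24 among them), 81 without the low-count filter, 40 in one fit of all brain libraries, 10 with mutants of 7.9 weeks only, 7 with females only and 5 with sex as a covariate. Without TMM there were 30, 26 lower and 4 higher, against 18 and 6. Leaving out 1 library gave 2 to 22. The *Rorb* decrease was called under each of these. Its mean difference of −25.7 CPM ranged from −27.8 to −22.7 with 1 library left out, where the smallest exact p possible is 0.0667 or 0.1. Replicate numbers were names only, and deviations of same-numbered libraries correlated at −0.12, −0.06 and −0.09. With the number as a block 3 genes were called in brain, 1 of them among the 24, and *Rorb* was at −0.88 (adjusted p = 0.011). In spinal cord the count of 365 became 291 with the block, 555 with DESeq2 and 132 to 499 with 1 library left out, lowest without C57BL/6J replicate 1. The count of 0 between tissues became 6 without C57BL/6J replicate 3 and 1 without h2 replicate 4, from 0 to 6 in all. Fitting the 2 mutant groups alone gave 3 genes against h1, 11 against h3 and 14 against h4, and leaving out 1 library gave 1 to 5, 13 to 20 and 16 to 23. These last fits and the list medians were added after seeing the data. Of the single-gene results 186 kept their side of the threshold and 205 lost it, and none reversed, and of list medians 265 moved by less than the spread between replicates and 24 by more. The causes were not tested.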
